A study of Mus musculus with 32 samples.

Results

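The comparison described here sets mature microRNAs (miRNAs) of mouse hippocampal neurons treated with forskolin (FSK) against those of neurons given DMSO. It was made up of every small RNA library labelled FSK or DMSO, 6 FSK and 4 DMSO libraries, which are 10 of the 32 libraries of the study. The neurons were primary cultures from hippocampi of P0 pups, kept for 16 days in vitro. The FSK cultures received 50 µM forskolin for 30 minutes, and the DMSO cultures the same volume of DMSO for the same 30 minutes. The labels name no strain, sex or genotype, and they do not say whether libraries of one group came from separate cultures or animals, so every p-value below measures the spread between libraries, which may be partly technical. The 1963 miRNAs of the count table were accounted for as follows: 572 had no count in any of these libraries, 835 had a count but too few to be tested, and 556 were tested.

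A miRNA is cut from a hairpin in a longer primary transcript and loaded into an Argonaute protein. There the seed, bases 2 to 8 from its 5′ end, selects the mRNAs it represses. Forskolin activates adenylyl cyclase and so raises cAMP, which acts through protein kinase A on the transcription factor CREB. The transcript that carries miR-212 and miR-132 is a well-known CREB target in neurons. Mature miRNAs are in general long-lived, and a primary transcript can change before its mature products do.

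The mature sequences of the miRNAs on which the results turn are given from RefSeq (GRCm38.p6), 5′ to 3′, with the seed in capitals. Of the tested miRNAs, 487 had a sequence there. The first set holds the miRNAs that were lowest in FSK libraries relative to their error, of which miR-770, miR-666 and miR-410 lie in one imprinted region of chromosome 12, at chr12:109563710-109563731, chr12:109717140-109717161 and chr12:109743729-109743749 on the plus strand. miR-138-5p has 2 loci, of which one is at chr8:94324312-94324334 (plus strand).
miR-770-5p: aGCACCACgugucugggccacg
miR-666-3p: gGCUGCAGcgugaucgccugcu
miR-410-5p: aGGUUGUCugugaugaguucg
miR-138-5p: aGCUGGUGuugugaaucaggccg
The second set holds miRNAs that were higher in most FSK libraries, from chr13:63300718-63300739 (plus strand), chrX:53048044-53048065 (minus strand) and, for one of its 2 loci, chr14:115044476-115044496 (plus strand).
miR-27b-5p: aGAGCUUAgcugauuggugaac
miR-450b-5p: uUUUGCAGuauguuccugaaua
miR-92a-3p: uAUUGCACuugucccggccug
The third set holds miRNAs that were high in the libraries FSK 4 and FSK 5. The first pair shares 1 seed, and miR-10a-5p lies within Hoxb3 at chr11:96317186-96317208 and miR-10b-5p within the HoxD cluster at chr2:74726074-74726096 (both plus strand). The others are at chr11:87756867-87756887 (plus strand) and chr11:43374435-43374456 (minus strand).
miR-10a-5p: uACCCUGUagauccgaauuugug
miR-10b-5p: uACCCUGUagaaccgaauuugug
miR-142a-5p: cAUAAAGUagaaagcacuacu
miR-146a-5p: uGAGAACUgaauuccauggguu
The fourth set holds miRNAs that were lower in FSK 1, FSK 2 and FSK 3. The first and second of them lie within the serotonin receptor gene Htr2c, at chrX:147064918-147064939 and chrX:147158281-147158302, and the third lies within Trpm3, at chr19:22750610-22750631, all on the plus strand.
miR-1298-5p: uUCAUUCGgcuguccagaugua
miR-448-3p: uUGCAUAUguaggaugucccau
miR-204-5p: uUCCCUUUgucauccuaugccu
The last pair comes from the CREB target transcript, at chr11:75173723-75173744 and chr11:75173443-75173464 (plus strand), and shares 1 seed.
miR-132-3p: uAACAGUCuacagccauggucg
miR-212-3p: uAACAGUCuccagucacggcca

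The libraries held 1748819 to 6756996 counts in the FSK group and 2844495 to 4909062 in the DMSO group, and the tested miRNAs carried 99.95 to 99.97% of them. FSK 4 and FSK 5 lay apart from the other libraries. On the first principal component of the log2 levels, which held 51% of the variance, they stood at 17.6 and 17.0, while the other FSK libraries stood between -3.27 and 3.56 and the DMSO libraries between -8.28 and 7.72. In the total RNA libraries of the same names, the summed level of 14 microglial markers was 186 CPM (the level as counts scaled for library depth) in FSK 4 and 358 CPM in FSK 5, against 10.02 to 38.5 CPM in the other FSK libraries and 7.71 to 26.5 CPM in the DMSO libraries. The total RNA libraries also fell into 2 sets by depth, with FSK 4, FSK 5, FSK 6 and DMSO 2, DMSO 3, DMSO 4 above 30000000 counts and FSK 1, FSK 2, FSK 3 and DMSO 1 below. The labels name no batch, and this set is used only as a term or a split in what follows. Excitatory neuron markers were present in every library, at 761 to 1170 CPM in the FSK group and 1198 to 1510 CPM in the DMSO group. Every FSK library thus lay below every DMSO library in these markers, and their part in the values of neuronal miRNAs was not tested. Astrocyte markers were present in every library too, at 5046 to 7558 CPM in the FSK group and 4152 to 6904 CPM in the DMSO group. In bulk RNA like this, fewer cells of a type and less RNA per cell cannot be told apart.

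No mature miRNA passed the test after 30 minutes of forskolin. In the edgeR quasi-likelihood test, 0 of 556 miRNAs (0%) had an adjusted p under 0.05, and the smallest adjusted p was 0.32. Unadjusted p was under 0.05 for 53 miRNAs (9.53%), of which 31 (5.58%) were higher and 22 (3.96%) lower in FSK libraries. Without FSK 4 and FSK 5, edgeR again called 0 of 538 miRNAs (0%), with a smallest adjusted p of 0.15 and with 61 miRNAs (11.3%) at an unadjusted p under 0.05, 26 higher (4.83%) and 35 lower (6.51%). With FSK 6 left out as well, edgeR called 8 miRNAs, at adjusted p from 0.0019 to 0.050. Of these, miR-27b-5p, miR-92a-3p and miR-712-5p were higher and miR-1298-5p, miR-448-3p, miR-204-5p, miR-339-3p and miR-410-5p lower. All FSK libraries of that fit were of the total RNA set of lower depth, and most DMSO libraries were of the other set. Treatment and set thus largely overlapped, and the part of the set in these calls was not tested. Those FSK libraries were also the most alike within a group, and whether they came from separate cultures is not known.

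How much the data could have shown was set by the intervals. The 95% interval of a log2 fold change reached 0.48 to each side in the median miRNA, and 0.47 without FSK 4 and FSK 5. For 425 miRNAs (76.4%) the whole interval lay between -1 and 1, and the same held for 417 (77.5%) without FSK 4 and FSK 5. These intervals are for one miRNA at a time. With all libraries, only 13 miRNAs had a fitted log2 fold change beyond 1 in size. Of these, 11 were higher in FSK libraries, and for 10 of the 11 the highest FSK library was FSK 4 or FSK 5. Without those libraries 14 were beyond 1 in size, of which 4 were higher and 10 lower.

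The other tools made calls, and these differed between the 2 sets of libraries. DESeq2 called 1 miRNA with all libraries (0.18%), miR-10a-5p, at a DESeq2 adjusted p of 0.0095. It called 6 (1.12%) without FSK 4 and FSK 5, with miR-27b-5p higher and miR-1298-5p, miR-204-5p, miR-339-3p, miR-135a-2-3p and miR-448-3p lower, each at a DESeq2 adjusted p of 0.048. limma-voom with a quality weight for each library called 30 miRNAs with all libraries (5.4%), 14 higher and 16 lower, and 82 without FSK 4 and FSK 5 (15.2%), 42 higher and 40 lower. Of the 30, 29 were also among the 82, and without the quality weights limma-voom called 0 in both. The authors' deposited table gave an adjusted p for 1389 miRNAs, of which 1 (0.072%) was under 0.05: miR-770-5p, at a log2 fold change of -0.65 with a standard error of 0.16 and an adjusted p of 0.039.

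**Figure D1:**
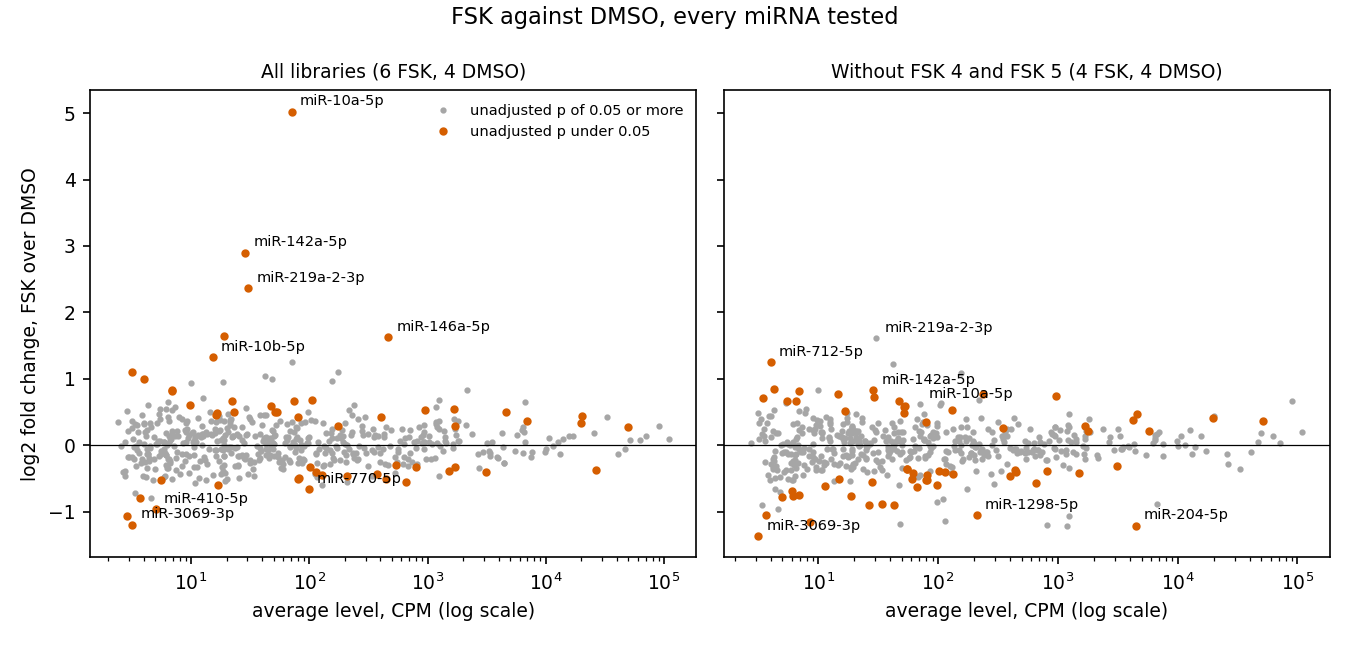
Log2 fold change, FSK over DMSO, against average level in CPM (log scale) for each tested miRNA, with all libraries on the left and without FSK 4 and FSK 5 on the right. Orange points have an unadjusted p under 0.05 and none has an adjusted p under 0.05; miR-10a-5p stands at 5.02 on the left and 0.62 on the right.

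The groups did not overlap for few miRNAs. All 6 FSK libraries lay below every DMSO library for 7 of the 556 tested (1.26%) and above every DMSO library for 5 (0.899%). The 7 were miR-666-3p, miR-770-5p, miR-138-5p, miR-676-3p, miR-760-3p, miR-770-3p and miR-758-3p. The 5 were miR-450b-5p, miR-146b-5p, miR-674-3p, miR-5100 and miR-140-5p. The 4 FSK libraries other than FSK 4 and FSK 5 lay below every DMSO library for 19 of 538 (3.53%) and above for 14 (2.6%).

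Of the 6 miRNAs of smallest p on the lower side, 3 came from the imprinted Dlk1-Dio3 region, as did 10 of the 22 lower at an unadjusted p under 0.05. The region held 86 of the 556 miRNAs tested. Without FSK 4 and FSK 5 it gave 5 of the 35 lower at that limit, and held 84 of the 538 tested. miR-770-5p, whose hairpin lies in the long non-coding RNA gene Meg3, had 68.9, 76.6, 72.1, 58.6, 73.8 and 77.7 CPM in FSK 1 to FSK 6, against 136, 109, 101 and 104 CPM in DMSO 1 to DMSO 4. The groups did not overlap, and DMSO 1 was the highest library. The log2 fold change was -0.66 ± 0.18 (SE; edgeR adjusted p = 0.32), and without FSK 4 and FSK 5 it was -0.60 ± 0.19 (edgeR adjusted p = 0.22). Its partner from the same hairpin, miR-770-3p, averaged 89.7 ± 8.5 CPM in FSK libraries (SD, n = 6) and 119 ± 19 CPM in DMSO libraries (SD, n = 4), again with no overlap.

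miR-666-3p had 361, 374, 347, 293, 312 and 443 CPM in FSK 1 to FSK 6, against 544, 478, 480 and 506 CPM in DMSO 1 to DMSO 4. Every FSK library was below every DMSO library, with FSK 6 nearest to them. The log2 fold change was -0.50 ± 0.13 (SE; edgeR adjusted p = 0.32), the smallest unadjusted p of all at 0.0013, and -0.39 ± 0.12 without FSK 4 and FSK 5. miR-410-5p, of the same region and within the transcript Mirg, was a rare arm at 1.78, 3.76, 2.47, 2.48, 2.18 and 6.25 CPM in the FSK libraries, against 6.34, 5.55, 6.34 and 5.70 CPM in the DMSO libraries. FSK 6 lay among the DMSO libraries and the other FSK libraries below them all, and the log2 fold change was -0.96 ± 0.27 (SE; edgeR adjusted p = 0.32).

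miR-138-5p, a neuronal miRNA that limits dendritic spine size in rat hippocampal neurons, was the most abundant of the lower group. It had 2666, 2617, 2777, 2396, 2321 and 3345 CPM in FSK 1 to FSK 6, against 3399, 3534, 3423 and 3783 CPM in DMSO 1 to DMSO 4. The groups did not overlap, with FSK 6 next to the DMSO libraries, and the log2 fold change was -0.40 ± 0.11 (SE; edgeR adjusted p = 0.32). These results turned on FSK 6: with that library left out, edgeR called 5 miRNAs, namely miR-410-5p, miR-138-5p, miR-666-3p and miR-544-3p lower and miR-92a-3p higher, at adjusted p between 0.016 and 0.038. The remaining members of the lower group were miR-3069-3p, a rare miRNA at 1.70 ± 0.79 CPM in FSK libraries and 4.05 ± 1.75 CPM in DMSO libraries (SD, n = 6 and 4), and miR-3085-3p, at 66.8 ± 11.1 and 93.6 ± 12.8 CPM.

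Split by library set, 3 of these 4 miRNAs were lower in FSK in both sets. For miR-770-5p the difference in log2 level was -0.90 between FSK 1 to FSK 3 and DMSO 1, and -0.43 between FSK 6 and DMSO 2 to DMSO 4. For miR-666-3p the same differences were -0.59 and -0.14, and for miR-138-5p they were -0.34 and -0.10. For miR-410-5p they were -1.14 and 0.09. Each of these rests on 1 library on one side, and has no test.

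**Figure D2:**
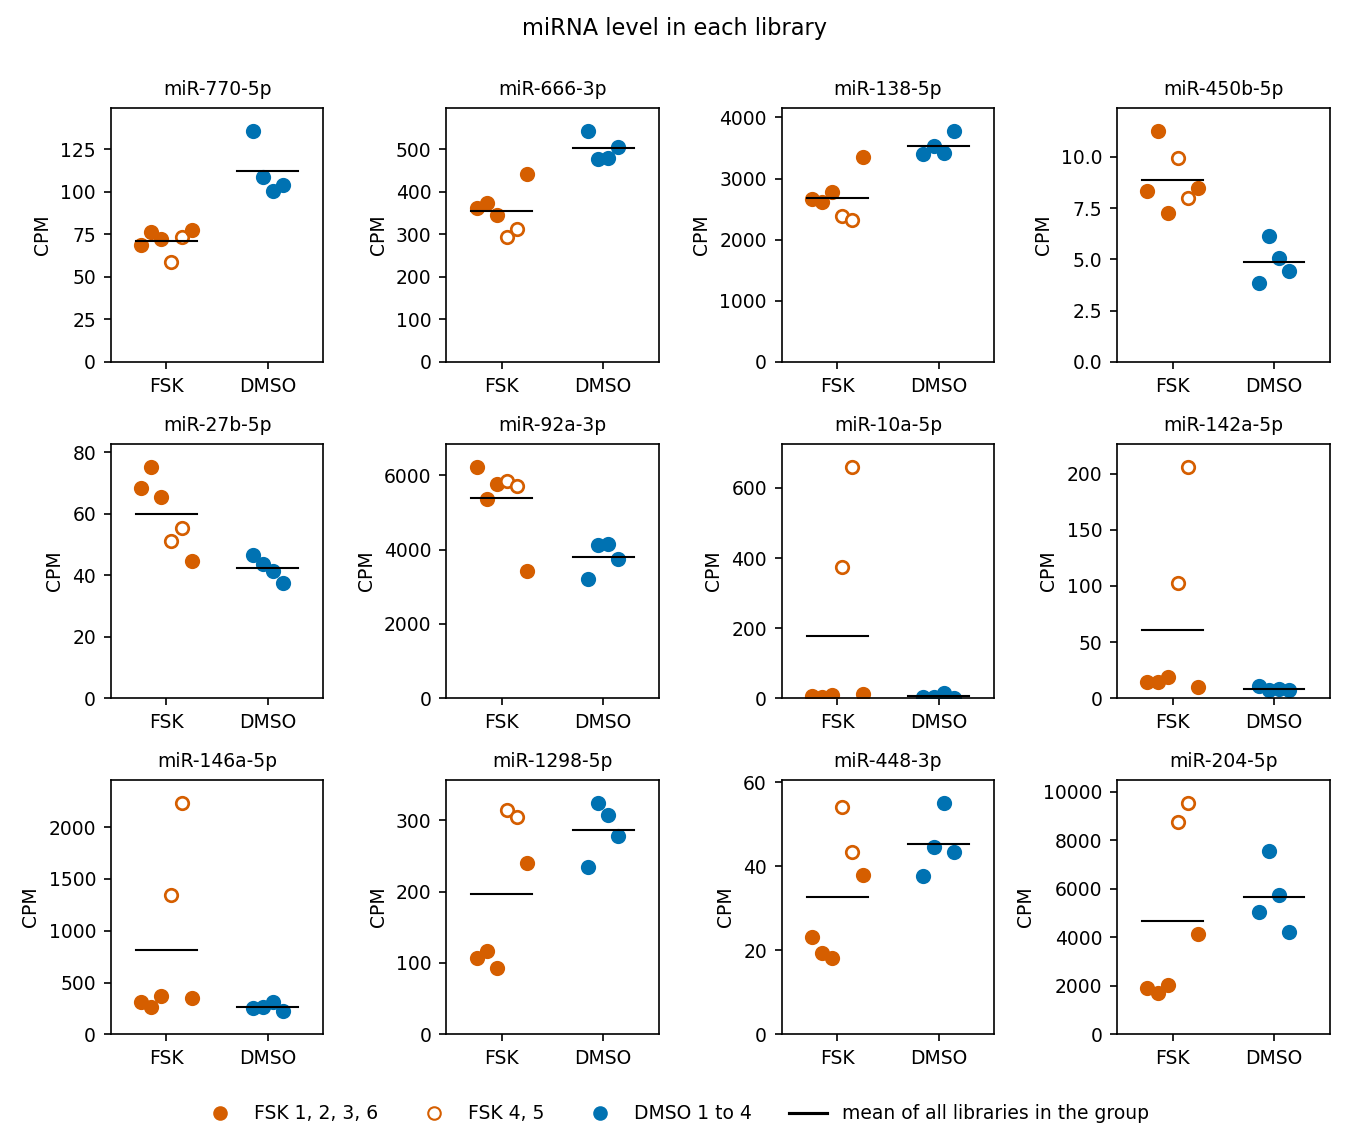
CPM in each library for 12 miRNAs, FSK at the left and DMSO at the right of each panel, with FSK 4 and FSK 5 as open circles and a line at the group mean. The first row holds miRNAs whose groups do not overlap; in the panels of miR-10a-5p, miR-142a-5p and miR-146a-5p only FSK 4 and FSK 5 are far above the DMSO libraries, and in those of miR-1298-5p, miR-448-3p and miR-204-5p FSK 1, FSK 2 and FSK 3 are below every DMSO library.

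As a whole, the Dlk1-Dio3 cluster, an imprinted locus rich in neuronal miRNAs, had log2 fold changes slightly below 0, and its levels were lowest in FSK 4 and FSK 5. The table held 107 of its miRNAs, of which 86 were tested, 73 of them below 0 against 256 of all 556 tested (46%). The median log2 fold change was -0.20, beside 0.04 for all tested miRNAs. Of the members, 10 had an unadjusted p under 0.05, all lower, beside 22 lower among all 556 (3.96%). Without FSK 4 and FSK 5 the median was -0.07 beside -0.01, with 56 of 84 members below 0 against 275 of 538 (51.1%). In that fit 5 of the 84 had an unadjusted p under 0.05, all lower, beside 35 lower among all 538 (6.51%). With the library set as a term the medians were -0.24 and -0.11, and 46.9% and 48.5% of all tested miRNAs were below 0. Within the sets, the median was -0.27 between FSK 1 to FSK 3 and DMSO 1. It was 0.10 between FSK 6 and DMSO 2 to DMSO 4, and each split has 1 library on one side and no test. By library, the median member stood at -0.50 and -0.47 in FSK 4 and FSK 5 relative to the DMSO mean, at -0.13, -0.10, -0.13 and 0.01 in FSK 1, FSK 2, FSK 3 and FSK 6, and at 0.18, -0.07, -0.06 and -0.06 in DMSO 1 to DMSO 4. Excitatory neuron marker sums were lowest in the same 2 libraries, at 761 and 776 CPM, and in every FSK library they lay below every DMSO library. The part of neuron content in this result was not tested. The 20 tested miRNAs of the cluster's first block, from miR-770 to miR-136 (chr12:109563710-109595387), had a median of -0.27, and the 57 of its last block, from chr12:109709065 to 109747949, had a median of -0.17. These were -0.10 and -0.03 without FSK 4 and FSK 5.

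The host transcripts of that region had log2 fold changes at or above 0. In total RNA, Mirg averaged 25.5 ± 7.3 CPM in FSK libraries and 14.5 ± 2.2 CPM in DMSO libraries (SD, n = 6 and 4), a log2 fold change of 0.82 ± 0.22 (SE; edgeR adjusted p = 0.078). The Mirg transcript passed the test once FSK 4 and FSK 5 were left out, at 1.05 (edgeR adjusted p = 0.022). Meg3 had a log2 fold change of 0.48 ± 0.25 (edgeR adjusted p = 0.28) and Rian one of 0.02 ± 0.17 (edgeR adjusted p = 0.96).

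At the miR-212/miR-132 locus the host transcript changed, while its mature miRNAs did not pass the edgeR test. The host, 1700016P03Rik, rose in total RNA: it had 12.2, 12.002, 10.97, 10.6, 13.4 and 16.3 CPM in FSK 1 to FSK 6, against 0.398, 1.795, 0.773 and 0.949 CPM in DMSO 1 to DMSO 4. Every FSK library was above every DMSO library, and the log2 fold change was 3.66 ± 0.44 (SE; edgeR adjusted p = 0.0015). Leaving out FSK 4 and FSK 5 gave 3.68 (edgeR adjusted p = 0.0058).

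miR-132-3p, which promotes dendrite growth in neurons, had 1701, 2020, 2132, 1218, 1715 and 1877 CPM in FSK 1 to FSK 6, against 2024, 1348, 1764 and 1629 CPM in DMSO 1 to DMSO 4. The groups overlapped, FSK 4 was the lowest library, and the log2 fold change was 0.07 with a 95% interval from -0.23 to 0.37 (edgeR adjusted p = 0.86). miR-212-3p, which shares its seed, had 354, 406, 427, 236, 352 and 370 CPM in FSK libraries, against 349, 296, 354 and 307 CPM in DMSO libraries. Its log2 fold change was 0.13, from -0.17 to 0.43 (edgeR adjusted p = 0.79), and without FSK 4 and FSK 5 it was 0.26, from 0.02 to 0.51, at an unadjusted p of 0.038 and an edgeR adjusted p of 0.39. Weighted limma-voom without FSK 4 and FSK 5 called miR-212-3p higher, at 0.30 (limma adjusted p = 0.046), and without weights it called none. The other arms of both hairpins gave -0.21, from -0.48 to 0.05, for miR-132-5p and -0.04, from -0.35 to 0.28, for miR-212-5p. The upper ends of all 4 intervals lay far below the 3.66 of the host transcript.

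**Figure D3:**
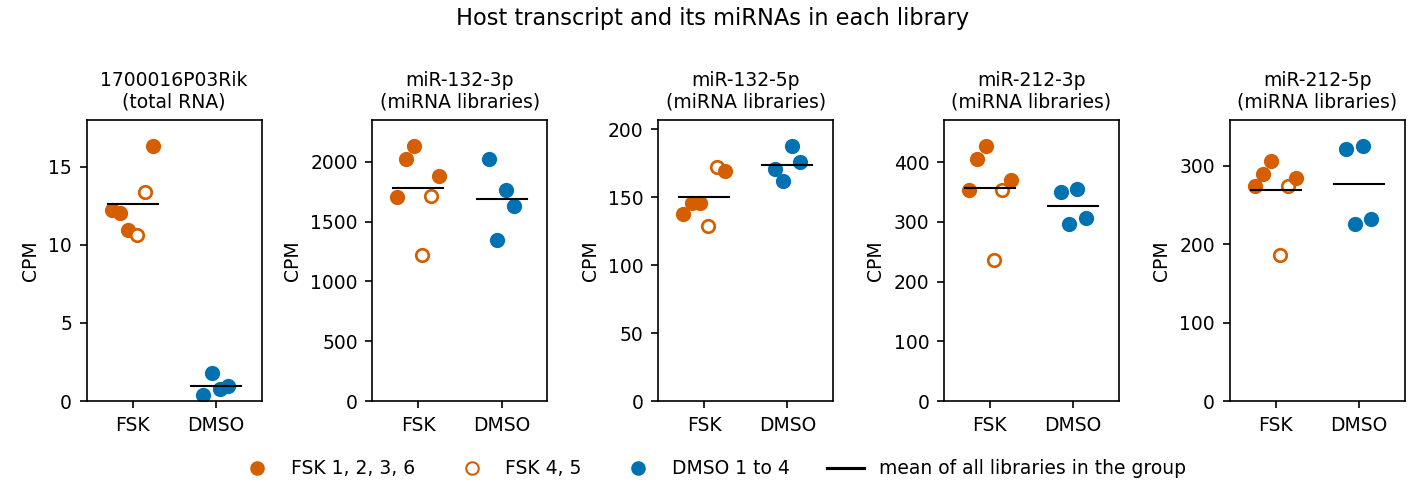
CPM in each library for the host transcript 1700016P03Rik in total RNA (left panel) and for the 4 mature arms of its 2 hairpins in the miRNA libraries, FSK at the left of DMSO in each panel, with FSK 4 and FSK 5 as open circles and a line at the group mean. The host transcript separates the groups, at 12.6 against 0.98 CPM on average, and the mature arms overlap.

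Among the other hosts, 24 of 25 listed transcripts were in the total RNA table and 22 were tested. Of these, 2 passed, both higher, beside 139 of all 17173 features tested (0.809%). The second was C130071C03Rik, the host of miR-9-2, at 97.8 ± 11.7 CPM in FSK libraries and 66.8 ± 11.7 CPM in DMSO libraries (SD, n = 6 and 4) and a log2 fold change of 0.55 ± 0.12 (SE; edgeR adjusted p = 0.045). That call was lost without FSK 4 and FSK 5, at 0.55 and an edgeR adjusted p of 0.098. It was also lost when FSK 1, 2, 4, 5 or 6, DMSO 1, 2 or 3, or DHPG 2, 3, 4 or 5 of the same fit was left out alone, at edgeR adjusted p from 0.053 to 0.18 and log2 fold changes from 0.47 to 0.56. miR-9-5p, a miRNA of neural progenitors and neurons that can come from any of 3 hairpins, was at 65335 ± 4418 and 61852 ± 4930 CPM, a log2 fold change of 0.08 (interval -0.12 to 0.28). Its partner miR-9-3p had a log2 fold change of 0.37 (interval -0.08 to 0.83; edgeR adjusted p = 0.56). Mir155hg, the host of miR-155, was under the count filter, at 0.21 ± 0.13 CPM in FSK libraries and 0.06 ± 0.05 CPM in DMSO libraries.

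On the higher side, miR-27b-5p was the first by p. It comes from the miR-23b/27b/24-1 hairpin cluster on chromosome 13 and had 68.3, 75.2, 65.3, 51.2, 55.4 and 44.7 CPM in FSK 1 to FSK 6, against 46.5, 43.6, 41.4 and 37.5 CPM in DMSO 1 to DMSO 4. FSK 6 lay within the DMSO range and the other FSK libraries above it. The log2 fold change was 0.51 ± 0.16 (SE; edgeR adjusted p = 0.33), and 0.60 ± 0.17 without FSK 4 and FSK 5 (edgeR adjusted p = 0.17). miR-23b-3p of the same cluster had 1173, 1189, 1608, 724, 816 and 1017 CPM in the FSK libraries, against 808, 526, 831 and 852 CPM in the DMSO libraries. FSK 4 and FSK 5 here lay within the DMSO range and the other 4 above it, and the log2 fold change was 0.53 ± 0.21 with all libraries and 0.74 ± 0.20 without those 2 (edgeR adjusted p = 0.43 and 0.17).

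All 9 tested members of the miR-23, miR-27 and miR-24 clusters had a log2 fold change above 0, with a median of 0.42, beside 300 of all 556 tested. Of the 9, 4 had an unadjusted p under 0.05, beside 31 higher among all 556 (5.58%). Without FSK 4 and FSK 5, 5 were above 0 and 4 below, with a median of 0.25, beside 263 of all 538 above 0. In that fit 4 of the 9 were higher at an unadjusted p under 0.05, beside 26 among all 538 (4.83%). The 4 below 0 came from the second copy of the cluster, on chromosome 8: miR-27a-3p averaged 414 ± 330 CPM over 6 FSK libraries and 206 ± 97 CPM over the 4 without FSK 4 and FSK 5, against 308 ± 105 CPM in DMSO libraries. It stood at 840 and 817 CPM in FSK 4 and FSK 5. miR-24-3p, which both copies give, had a log2 fold change of 0.42 ± 0.19 with all libraries and 0.25 ± 0.19 without those 2.

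miR-92a-3p, from the miR-17-92 cluster and its paralog on the X chromosome, which are known for promoting cell proliferation, had 6230, 5370, 5775, 5863, 5707 and 3433 CPM in FSK 1 to FSK 6, against 3214, 4120, 4165 and 3736 CPM in DMSO 1 to DMSO 4. FSK 6 lay within the DMSO range and the other 5 above it, and the log2 fold change was 0.50 ± 0.16 (SE; edgeR adjusted p = 0.33). All 13 tested miRNAs of this cluster and its paralogs were above 0 with all libraries, beside 300 of all 556 tested, and 11 with scaling to library totals. Their median was 0.35, and 2 had an unadjusted p under 0.05, beside 31 higher among all 556 (5.58%). Without FSK 4 and FSK 5, 10 were above 0, with a median of 0.19, beside 263 of all 538. In that fit 1 had an unadjusted p under 0.05, beside 26 higher among all 538 (4.83%). By library the median member stood at 0.56 and 0.66 in FSK 4 and FSK 5, at 0.12 to 0.23 in the other FSK libraries, and at -0.36, 0.22, 0.21 and -0.01 in DMSO 1 to DMSO 4. Marker sums of cycling cells in total RNA were 81.4 to 213 CPM in FSK libraries and 63.5 to 141 CPM in DMSO libraries, and their part in this result was not tested.

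miR-450b-5p, one of a miRNA cluster on the X chromosome, had 8.32, 11.3, 7.26, 9.93, 7.98 and 8.49 CPM in the FSK libraries, against 3.88, 6.12, 5.08 and 4.42 CPM in the DMSO libraries. The groups did not overlap, and the log2 fold change was 0.83 ± 0.27 with all libraries and 0.82 ± 0.31 without FSK 4 and FSK 5 (edgeR adjusted p = 0.33 and 0.37). The 7 tested miRNAs of its cluster, which include miR-322, miR-351, miR-503 and miR-542, had a median log2 fold change of 0.43, with 1 below 0. miR-712-5p, which in mouse is known to be cut from ribosomal RNA precursor, was rare, at 4.55 ± 1.94 CPM in FSK libraries and 2.27 ± 0.48 CPM in DMSO libraries (SD, n = 6 and 4), a log2 fold change of 0.9995 ± 0.33 (SE; edgeR adjusted p = 0.33) and of 1.25 ± 0.33 without FSK 4 and FSK 5 (edgeR adjusted p = 0.15).

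The largest fold changes with all libraries came from high levels in FSK 4 and FSK 5. miR-10a-5p, encoded in the HoxB cluster and typical of cells with a caudal Hox code, had 374 and 660 CPM in FSK 4 and FSK 5, while the other FSK libraries had 7.13, 2.35, 9.88 and 12.9 CPM and the DMSO libraries 4.23, 2.49, 13.5 and 1.66 CPM. With all libraries the log2 fold change was 5.02 ± 1.54 (SE; edgeR adjusted p = 0.33), and it was 0.62 ± 0.57 without these 2 (edgeR adjusted p = 0.69). miR-10b-5p, of the HoxD cluster and with the same seed, stood at 34.7 and 66.5 CPM in FSK 4 and FSK 5, at 8.46 to 14.4 CPM in the other FSK libraries and at 5.93 to 14.4 CPM in the DMSO libraries. The gene Hoxb3 itself was barely measured in total RNA, at 0.03 CPM in FSK libraries and 0.02 CPM in DMSO libraries.

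miR-142a-5p, specific to blood cells and microglia, had 103 and 206 CPM in FSK 4 and FSK 5, while the other FSK libraries had 14.3, 14.1, 18.5 and 10.3 CPM and the DMSO libraries 10.9, 7.46, 8.04 and 6.99 CPM. Its log2 fold change was 2.90 ± 0.87 with all libraries and 0.83 ± 0.35 without these 2 (SE; edgeR adjusted p = 0.33 and 0.37). miR-146a-5p, which dampens innate immune signalling, had 1348 and 2230 CPM in FSK 4 and FSK 5, against 264 to 372 CPM in the other FSK libraries and 221 to 315 CPM in the DMSO libraries. miR-155-5p, an inflammatory miRNA, had 68.3 and 75.2 CPM in FSK 4 and FSK 5, but only 6.70 to 11.3 CPM in the other FSK libraries, against 10.2 to 23.9 CPM in the DMSO libraries. Its log2 fold change was 0.95 with all libraries and -0.77 without these 2, at edgeR adjusted p of 0.61 and 0.37.

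The myeloid miRNA miR-223-3p was too rare to be tested. It had 34 and 98 counts in FSK 4 and FSK 5, and 0, 0, 5 and 0 in the other FSK libraries, against 5, 1, 0 and 0 in DMSO 1 to DMSO 4. miR-142a-3p showed the same libraries at 14 and 40 counts, with 1, 0, 3 and 1 in the other FSK libraries and 2, 5, 0 and 0 in the DMSO libraries. Both followed the microglial markers of the same-named total RNA libraries, which were highest in FSK 5 and next in FSK 4, and their part in the result was not tested. Other untested members of the microglia and blood list did not all do so. In FSK 4 and FSK 5, miR-223-5p had 1 and 8 counts, miR-150-5p 0 and 1, and miR-451a 3 and 3. There miR-144-3p had 1 and 1 counts and miR-144-5p 2 and 3. Of 11 miRNAs of the list in the table, 4 were tested, all above 0 beside 300 of all 556 tested, with miR-486a-5p lowest at 0.04. Their median log2 fold change was 1.29. Without FSK 4 and FSK 5 it was 0.28, with 1 of the 4 below 0.

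miR-219a-2-3p, needed for oligodendrocyte maturation, was, like miR-142a-5p, higher in most FSK libraries. It had 60.03, 38.1, 39.1, 91.8, 129 and 9.83 CPM in FSK 1 to FSK 6, against 1.41, 14.7, 10.6 and 19.9 CPM in DMSO 1 to DMSO 4. FSK 6 was within the DMSO range and the other 5 were above it, with a log2 fold change of 2.37 ± 0.89 (SE; edgeR adjusted p = 0.42) and of 1.61 ± 0.88 without FSK 4 and FSK 5 (edgeR adjusted p = 0.54). The oligodendrocyte lineage markers in total RNA, 10 of 10 measured, summed to 957, 827, 910, 944, 1378 and 570 CPM in FSK 1 to FSK 6, against 541, 814, 727 and 752 CPM in the DMSO libraries. Their order placed FSK 6 lowest in the FSK group too, and their part in the result was not tested. The other tested miRNAs of that list lay near 0, with miR-338-5p at 0.15 (interval -0.17 to 0.48).

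Without FSK 4 and FSK 5, 3 of the 6 miRNAs of smallest p on the lower side, miR-1298-5p, miR-448-3p and miR-204-5p, lay within Htr2c or Trpm3, genes that choroid plexus epithelium expresses strongly. The other 3 were miR-135a-2-3p, miR-339-3p and miR-187-3p. miR-1298-5p had 107, 117, 92.96 and 240 CPM in FSK 1, FSK 2, FSK 3 and FSK 6, against 235, 324, 308 and 277 CPM in DMSO 1 to DMSO 4. FSK 4 and FSK 5 were within the DMSO range at 315 and 304 CPM. The log2 fold change was -1.05 ± 0.25 without FSK 4 and FSK 5 (SE; edgeR adjusted p = 0.15) and -0.54 ± 0.31 with them (edgeR adjusted p = 0.56). miR-448-3p, within the same gene, had 23.2, 19.3, 18.2 and 38.0 CPM in those 4 FSK libraries, against 37.7, 44.6, 54.99 and 43.4 CPM in the DMSO libraries, and 53.99 and 43.3 CPM in FSK 4 and FSK 5. Not all miRNAs within Htr2c were lower. Without FSK 4 and FSK 5, the opposite arms miR-1298-3p and miR-448-5p had log2 fold changes of 0.40 and 0.12. Weighted limma-voom on the same libraries called miR-1264-3p, also within Htr2c, higher at 0.73 (limma adjusted p = 0.043). The gene itself, Htr2c, averaged 9.07 ± 4.03 CPM in FSK libraries and 9.49 ± 3.77 CPM in DMSO libraries in total RNA (SD, n = 6 and 4). In FSK 1, FSK 2, FSK 3 and FSK 6 it had 11.4, 9.63, 8.55 and 15.2 CPM. Without FSK 4 and FSK 5 its log2 fold change was 0.24 (edgeR adjusted p = 0.69), and that of Trpm3 was -0.42 (edgeR adjusted p = 0.18).

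miR-204-5p, abundant in choroid plexus and retinal pigment epithelium, had 1930, 1711, 2020 and 4120 CPM in FSK 1, FSK 2, FSK 3 and FSK 6, against 5042, 7562, 5745 and 4227 CPM in the DMSO libraries. FSK 4 and FSK 5 had the highest levels of all, 8773 and 9534 CPM. Its log2 fold change was -1.21 ± 0.31 without FSK 4 and FSK 5 (SE; edgeR adjusted p = 0.15) and -0.27 ± 0.49 with them (edgeR adjusted p = 0.86). miR-339-3p and miR-135a-2-3p followed the same order, at 24.2 ± 8.6 and 15.04 ± 2.3 CPM over the 4 FSK libraries and 45.5 ± 6.4 and 28.2 ± 7.9 CPM over the 4 DMSO libraries (SD), with 65.3 to 86.6 CPM in FSK 4 and FSK 5. miR-187-3p was at 309 ± 60 CPM over the 4 FSK libraries and 429 ± 17 CPM over the 4 DMSO libraries.

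The 7 tested miRNAs of the choroid plexus and ciliated ependyma list differed between single libraries. Apart from miR-204-5p, they were arms of miR-34b, miR-34c, miR-449a and miR-449c of multiciliated cells, so the list's medians mainly describe these. The median member stood at 2.31 and 2.39 in FSK 4 and FSK 5, at -0.67, -1.11, -0.64 and 0.13 in FSK 1, FSK 2, FSK 3 and FSK 6, and at -1.72, 1.14, 0.39 and 0.27 in DMSO 1 to DMSO 4, on the log2 scale relative to the DMSO mean. The list's median log2 fold change was 0.65 with all libraries and -0.89 without FSK 4 and FSK 5, and with the library set as a term these were 1.01 and 0.09. Within the sets its median was 0.99 between FSK 1 to FSK 3 and DMSO 1, and -0.58 between FSK 6 and DMSO 2 to DMSO 4. A list of 9 choroid plexus genes, chosen after these values were seen, summed in total RNA to 298 and 245 CPM in FSK 4 and FSK 5, 69.3, 55.4, 61.3 and 166 CPM in the other FSK libraries, and 106, 258, 215 and 155 CPM in the DMSO libraries. The libraries low in these genes were the shallow total RNA set, FSK 1 to FSK 3 and DMSO 1. Within that set FSK 1 to FSK 3 lay below DMSO 1. In the other set FSK 6 lay below DMSO 2 and DMSO 3 and above DMSO 4. The part of such cells in the result, and in the values of single miRNAs within the sets, was not tested. Unlike the median of the list, miR-1298-5p was lower in FSK in both sets, at -1.16 between FSK 1 to FSK 3 and DMSO 1 and -0.33 between FSK 6 and DMSO 2 to DMSO 4, and miR-204-5p was so at -1.42 and -0.46. Each split has 1 library on one side and no test.

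**Figure D4:**
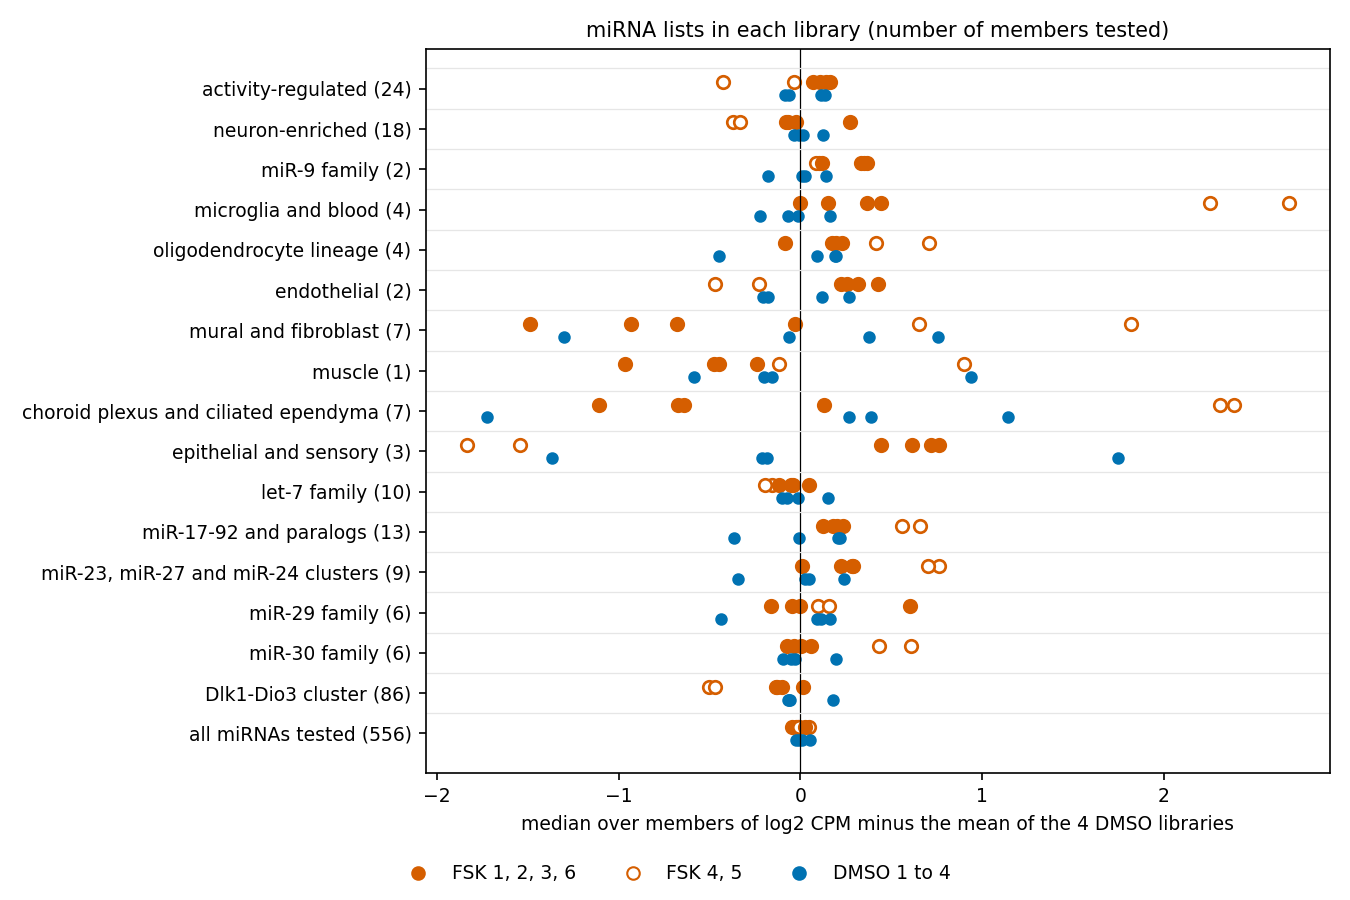
For each miRNA list, the median over its tested members of the log2 CPM in a library minus the mean of the 4 DMSO libraries, with FSK libraries above and DMSO libraries below in each row and FSK 4 and FSK 5 as open circles. The row of all tested miRNAs is a median, which the scaling between libraries keeps near 0, and single miRNAs differ from it. FSK 4 and FSK 5 stand at 2.26 and 2.69 for the microglia and blood list and at -0.50 and -0.47 for the Dlk1-Dio3 cluster.

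On the higher side without FSK 4 and FSK 5, the neuronal miR-128-3p was the most abundant of those named. It had 60932, 66183, 62749 and 50414 CPM in FSK 1, FSK 2, FSK 3 and FSK 6, against 53153, 37825, 51870 and 44950 CPM in DMSO 1 to DMSO 4, and 28785 and 27958 CPM in FSK 4 and FSK 5. FSK 6 lay within the DMSO range. The log2 fold change was 0.37 ± 0.12 (SE; edgeR adjusted p = 0.22), and 0.08 ± 0.21 with all libraries (edgeR adjusted p = 0.89). miR-301b-3p was at 18.0 ± 3.7 CPM over the 4 FSK libraries and 10.8 ± 2.3 CPM over the 4 DMSO libraries, and miR-374b-5p at 59.0 ± 7.6 and 40.1 ± 8.4 CPM (SD). miR-690 was called by edgeR once DMSO 1 was also left out, at a log2 fold change of 1.20 (edgeR adjusted p = 0.042), and was named for that after its values were seen.

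The medians of the neuronal and activity-regulated lists lay close to 0, while single members did not. The 24 tested activity-regulated miRNAs had a median log2 fold change of 0.02, with 12 above 0 and a range from -0.41 to 1.63, the top of which was miR-146a-5p. The 18 neuron-enriched ones had a median of -0.0026 with 9 above 0 and a range from -0.40 to 0.51. Leaving out FSK 4 and FSK 5, the activity-regulated list had a median of 0.11 with 18 of 24 above 0, and the neuron-enriched list one of 0.06 with 12 of 18 above 0, beside 263 of all 538 tested. miR-124-3p, specific to neurons, averaged 2461 ± 599 CPM in FSK libraries and 2690 ± 359 CPM in DMSO libraries (SD, n = 6 and 4), a log2 fold change of -0.13 with an interval from -0.46 to 0.20. miR-134-5p, which limits spine size in rat neurons, was at 217 ± 14 and 247 ± 25 CPM, a log2 fold change of -0.19 (interval -0.43 to 0.06). Both had edgeR adjusted p of 0.57 or more. In the neuron-enriched list the 2 members of smallest p were miR-138-5p, described above, and miR-129-1-3p, at 26.1 ± 5.1 and 18.5 ± 5.2 CPM.

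The remaining lists gave small differences or ones set by single libraries. The let-7 family, tumour-suppressing miRNAs, had a median of -0.07 over 10 tested members, of which 9 were read as sharing the seed GAGGUAG. In this family let-7i-5p was at -0.13 (interval -0.31 to 0.05) and let-7c-5p at -0.13 (interval -0.32 to 0.06). The miR-29 family had a median of 0.04 over 6 members, with miR-29a-3p at 0.21 and miR-29b-3p at 0.14, and the miR-30 family a median of 0.17 over 6 members, with miR-30c-5p and miR-30b-5p both at 0.23. The endothelial miR-126a-5p and miR-126a-3p were at 0.17 and 0.04. The 7 tested miRNAs of the mural and fibroblast list had a median of 0.07 with a range from -0.17 to 5.02, the top of which was miR-10a-5p. Its median was -1.14 without FSK 4 and FSK 5, over 5 tested members, 3 of them below 0, with miR-143-3p at -1.19, miR-199a-5p at -1.16 (unadjusted p = 0.030, edgeR adjusted p = 0.37) and miR-199a-3p at -1.14, and with the library set as a term as well the median was -0.23. The muscle miRNA miR-133a-3p was at -0.22 with all libraries and at -0.63 without those 2 (unadjusted p = 0.028, edgeR adjusted p = 0.37). Of the sensory cluster, miR-183-5p and miR-182-5p were lowest in FSK 4, FSK 5 and DMSO 2 and highest in DMSO 1, at 1300 CPM for miR-183-5p in DMSO 1 and 79.7 to 605 CPM in the FSK libraries.

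The 2 arms of a hairpin are made together, and their values were compared within the same libraries. Any difference between libraries can move both arms, so this comparison gives no check of the treatment effect. Both arms were tested for 154 hairpins, and in 109 of them the 2 log2 fold changes had the same sign, with a Pearson correlation of 0.62 across hairpins. When FSK 4 and FSK 5 were left out, 85 of 147 had the same sign and the correlation was 0.40. The points share the same libraries and are not independent replicates, so no p is given. Across the tested miRNAs the log2 fold change had a correlation of -0.13 with GC content and of 0.03 with abundance.

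**Figure D5:**
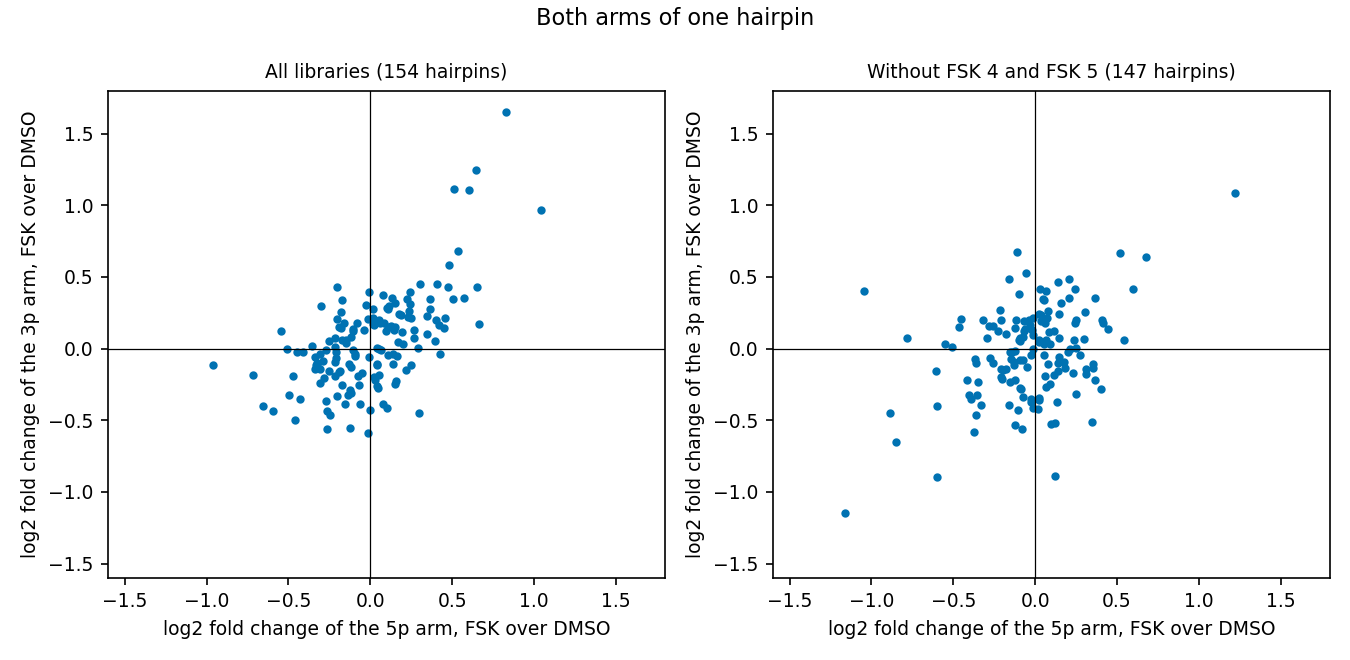
Log2 fold change, FSK over DMSO, of the 3p arm against that of the 5p arm for each hairpin with both arms tested, with all libraries on the left (154 hairpins) and without FSK 4 and FSK 5 on the right (147 hairpins). Points lie closer to a rising diagonal on the left, where the correlation is 0.62, than on the right, where it is 0.40.

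miRNAs that share a seed can repress the same mRNAs, so their levels were also read by seed. Among 48 seeds shared by at least 2 tested miRNAs, the pair with seed ACCCUGU, miR-10a-5p and miR-10b-5p, had the highest median log2 fold change, 3.17, which was 0.38 without FSK 4 and FSK 5. The pair with seed GAGAACU, miR-146a-5p and miR-146b-5p, had a median of 1.08, which was 0.30 without those libraries. miR-146b-5p had 1580, 1604, 1604, 1930, 3470 and 1955 CPM in FSK 1 to FSK 6, against 1421, 1445, 1473 and 1228 CPM in DMSO 1 to DMSO 4, so that all FSK libraries were above all DMSO libraries (log2 fold change 0.54 ± 0.19; edgeR adjusted p = 0.39). The 4 miRNAs with seed AAAGUGC, from the miR-17 family, ranged from 0.30 to 0.46, and miR-17-5p averaged 93.9 ± 13.2 CPM in FSK libraries and 70.2 ± 13.98 CPM in DMSO libraries. The pair with the miR-132 seed AACAGUC had a median of 0.10.

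The most abundant miRNAs carried most of the counts, and none passed the edgeR test. Weighted limma-voom without FSK 4 and FSK 5 called 3 of the 10 most abundant, all higher: miR-128-3p at 0.45 (limma adjusted p = 0.0028), miR-127-3p at 1.21 (limma adjusted p = 0.0056) and miR-181a-5p at 0.27 (limma adjusted p = 0.047). The 10 of highest mean level held 54.2 to 60.6% of the counts in FSK libraries and 56.5 to 57.7% in DMSO libraries. miR-181a-5p, a brain-enriched miRNA with 10.6% of the counts, averaged 106963 ± 17501 CPM in FSK libraries and 100203 ± 4821 CPM in DMSO libraries (SD, n = 6 and 4), a log2 fold change of 0.09 (interval -0.14 to 0.33). miR-26a-5p, at 0.28 (interval 0.02 to 0.54; unadjusted p = 0.034, edgeR adjusted p = 0.45), was the one of these with an unadjusted p under 0.05. miR-22-3p, let-7f-5p and let-7c-5p were at 0.15, -0.06 and -0.13.

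The levels of 3 of the abundant miRNAs differed more between single libraries than between the treatments. miR-127-3p, of the Dlk1-Dio3 cluster, had 113986, 107100 and 127609 CPM in FSK 1 to FSK 3 and 120249 CPM in DMSO 1, but 34061, 35585 and 48629 CPM in FSK 4 to FSK 6 and 37231, 53425 and 42874 CPM in DMSO 2 to DMSO 4. These levels followed the 2 sets of total RNA depth, and its log2 fold change was 0.29 without and -0.07 with the set as a term. miR-92b-3p had 95713 and 70183 CPM in FSK 4 and FSK 5, against 21688 to 43359 CPM in the DMSO libraries, with 23044 to 28458 CPM in the other FSK libraries. miR-30a-5p was likewise highest in those 2 libraries, at 46413 and 36770 CPM.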

How the data were processed

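miRNA levels came from the deposited table of estimated counts, which the authors made with Salmon against GRCm38 per the submitters' processing notes; no version, and no kit for small RNA, is given there. Of the deposited values 3.68% were not whole, and all were rounded. Control columns were matched to DMSO samples by number. The authors' deposited table of log2 fold changes, standard errors, p-values and base mean signal is quoted only by name; its log2 fold changes correlated at 0.9993 with those recomputed here.

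Tests used edgeR 4.0.16 (R 4.3.3; quasi-likelihood F test, robust, TMM factors, filterByExpr with a minimum count of 10, Benjamini-Hochberg limit 0.05), with all 16 miRNA libraries in 1 fit, the 6 DHPG (30 µM) libraries included. Total RNA was fitted likewise. Levels are CPM with TMM factors, the prior count for log2 CPM was 2, and intervals are 95%. Alternatives used DESeq2 1.42.0, limma 3.58.1 (voom), other scalings and filters, the library set, a replicate block and single libraries left out. The test was checked on simulated counts.

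Named miRNAs are the 6 of smallest p in each direction of each fit, since none passed, the 2 of smallest p in each list, the 10 most abundant, and miR-132, miR-212, miR-124-3p, miR-134-5p, miR-9-5p, miR-223-3p, miR-142a-3p, miR-146a-5p and miR-155-5p. Others were named after their values were seen. Members and lists were chosen with earlier results of these data known. Hairpins within 10000 bases formed a cluster. No 2 libraries of one group agreed within sampling noise. FSK 1, FSK 2 and FSK 3 were the most alike, with a chi-square per degree of freedom of 13.2 to 39.1 between them. Every other pair within a group had 95.3 to 1470. Apart from FSK 6, these were the FSK libraries of the fit without FSK 4 and FSK 5. Same-numbered FSK and DMSO libraries did not deviate together. The depth of each library bounds what low miRNAs can show.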

Additional observations from a re-analysis of the deposited data

Results flagged for a closer look

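In 114 groups of libraries of the named miRNAs, 6 held 1 library whose gap to the nearest other exceeded Dixon's 95% limit, where chance gives about 1 in 20 groups. In the FSK group, FSK 6 was low for miR-92a-3p, at 3430 CPM beside 5370 to 6230 CPM in the other FSK libraries, and without it edgeR called miR-92a-3p. FSK 4 was low for miR-212-3p, at 236 CPM beside 352 to 427 CPM, and for miR-212-5p, at 186 CPM beside 274 to 307 CPM. In the DMSO group, DMSO 2 was low for miR-23b-3p, at 526 CPM beside 808 to 852 CPM, and high for miR-135a-2-3p, at 40.0 CPM beside 23.7 to 25.2 CPM. DMSO 1 was low for miR-34c-3p, at 17.6 CPM beside 60.9 to 70.4 CPM.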

How the results depend on the processing

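The count of miRNAs called by edgeR with all libraries was 0 under each other scaling, filter and library-set alternative, 1 with DESeq2, 30 with weighted limma-voom and 0 to 5 with 1 library left out. Without FSK 4 and FSK 5 the same counts were 0, 6, 82 and 0 to 8. With the library set as a term, unadjusted p was under 0.05 for more miRNAs but 0 were called. limma-voom without sample weights, chosen after seeing the data, called 0 in both. A replicate block called 0 and, without FSK 4 and FSK 5, 4, all lower; same-numbered libraries had correlations of -0.455 to 0.406, 1 pair over 0.1, so the numbers are not taken to pair them. Host transcripts called were 2, and 7 with the set term, 6 with DESeq2, 1 without the filter and 1 to 2 with 1 library left out, 1700016P03Rik and C130071C03Rik being the 2. With library totals in place of TMM factors the median log2 fold change of all tested miRNAs was -0.07, against 0.04, and -0.12, against -0.01, without FSK 4 and FSK 5.

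The direction turned for 23 named miRNAs, and the cause was not tested. With library totals it turned for miR-128-3p (-0.031), miR-9-5p (-0.031), miR-126a-3p (-0.059), miR-181a-5p (-0.020) and miR-132-3p (-0.029). With the library-set term it turned for miR-128-3p (-0.10), miR-339-3p (0.027), miR-126a-3p (-0.026) and miR-127-3p (-0.075). With that term and without FSK 4 and FSK 5 it turned for miR-135a-2-3p (-0.75), miR-10b-5p (-0.23), miR-22-3p (-0.017), let-7f-5p (0.013), miR-92b-3p (-0.10), miR-30a-5p (-0.097), miR-124-3p (0.13) and miR-155-5p (-0.56). Leaving out FSK 4 and FSK 5 turned miR-135a-2-3p (-0.90), miR-34c-3p (-0.45), miR-34b-3p (-0.65), miR-183-5p (0.067), miR-182-5p (0.12), let-7f-5p (0.056), miR-92b-3p (-0.35), miR-30a-5p (-0.13), miR-212-5p (0.076), miR-124-3p (0.056) and miR-155-5p (-0.77). With weighted limma-voom it turned for miR-135a-2-3p (-0.68), miR-34c-3p (-0.37), miR-34b-3p (-0.50), miR-183-5p (0.97), miR-182-5p (0.70), miR-29b-3p (-0.12), miR-30b-5p (-0.030), let-7f-5p (0.069), miR-92b-3p (-0.20), miR-30a-5p (-0.048), miR-212-5p (0.11) and miR-155-5p (-0.36). The replicate block turned miR-135a-2-3p (-0.090). With 1 library left out at a time, the values ran across 0 for miR-128-3p (-0.00394 to 0.22), miR-135a-2-3p (-0.11 to 0.51), miR-339-3p (-0.35 to 0.14), miR-126a-3p (-0.014 to 0.14), miR-133a-3p (-0.52 to 0.22), miR-183-5p (-0.77 to 0.86), miR-182-5p (-0.66 to 0.60), miR-29b-3p (-0.043 to 0.25), let-7f-5p (-0.082 to 0.036), miR-132-3p (-0.016 to 0.18) and miR-212-5p (-0.11 to 0.076).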

Other observations

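miR-673-5p, of the Dlk1-Dio3 cluster, was too rare to be tested apart from 1 library, and was noticed after the values were seen. It had 473 counts in DMSO 2, while every other library had 0 or 1. The other arm of its hairpin, miR-673-3p, had 57.4 to 92.6 CPM in FSK libraries, against 115 CPM in DMSO 2 and 79.3 to 93.4 CPM in the other DMSO libraries.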
